A study of Homo sapiens with 8 samples.

Results

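Cells exposed to the highest bleomycin dose of the series, 480 µg/ml for 24 hours, were compared with untreated cells across all genes. The comparison used 4 of the 8 libraries of the series: untreated replicates 1 and 2, and 480 µg/ml replicates 1 and 2. Libraries from cells given 240 µg/ml (2) entered one further contrast, and those given 24 µg/ml (2) only the shared estimate of spread. All cells were described as wild type and came from H7, an established human embryonic stem cell line, carried through endoderm and foregut stages to lung progenitors and then to cells that the labels call diff-AEC2 and alveolar epithelial type 2 over 7 days at an air-liquid interface. Bleomycin, in 500 µl, was laid on the apical side of the inserts. The groups therefore share 1 parental line and 1 differentiation scheme, and nothing in the labels says whether the 2 libraries of a group came from separate cultures, so the p-values measure the spread between libraries, which may be technical. The labels also state a bleomycin stock weaker than this dose, so the dose is printed as the labels give it.

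Bleomycin is a glycopeptide that binds iron and breaks DNA strands, and it is widely used to injure lung tissue in models of fibrosis. Broken DNA activates the ATM and ATR kinases, which stabilise p53. This transcription factor switches on genes for cell cycle arrest, apoptosis and repair, and through the inhibitor p21 it leaves cell cycle promoters bound by the repressive DREAM complex. Type 2 cells make pulmonary surfactant, give rise to type 1 cells after injury, and are a cell type in which DNA damage and p53 activity have been linked to fibrosis.

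Counts per library ranged from 54721595 to 63016493 at 480 µg/ml and from 55941640 to 56761677 in untreated cells. Levels are given as CPM, the standard count unit relative to library size, after scaling each library by its trimmed mean of M values, with replicate 1 before replicate 2. The defining type 2 gene SFTPC had 0 counts in both untreated libraries, 7 counts in 480 µg/ml replicate 1 and 0 in replicate 2. SFTPA1 had 0 counts in all 4 libraries, while SFTPA2 and the type 1 gene AQP5 had at most 4. The fetal liver and yolk sac gene AFP held 4.23% and 4.50% of untreated counts and 5.50% and 4.58% at 480 µg/ml. Markers of liver and gut were thus read together with lung markers. In such bulk RNA, fewer cells of a type and less RNA per cell cannot be told apart.

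The libraries of 480 µg/ml differed from each other more than any other pair of the series. The median absolute difference between replicates over 18303 tested genes was 0.36 on the log2 scale at 480 µg/ml, against 0.15 in untreated cells, 0.15 at 24 µg/ml and 0.14 at 240 µg/ml. The replicates of 480 µg/ml lay over 1 log2 unit apart in 1241 genes (6.78%), compared with 928 (5.07%) for the untreated pair. They lay on opposite sides of both untreated libraries in 2965 genes (16.2%). By this measure the 24 µg/ml pair was not far behind, with 2601 genes (14.2%), and the 240 µg/ml pair had 1330 (7.27%). At 480 µg/ml, mitochondrial genes held 1.70% of counts in replicate 1 and 3.02% in replicate 2, against 1.53% and 1.59% in untreated cells. Ribosomal RNA held 1.74% and 3.98% against 2.03% and 1.70%. Levels are therefore given for both libraries.

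At 480 µg/ml, 2550 genes were called higher and 2535 lower than in untreated cells (adjusted p below 0.05), which is 13.9% of tested genes in each direction and 27.8% in all. The change exceeded 1 log2 unit in 1004 genes called higher (5.49%) and 1160 called lower (6.34%), and 2 log2 units in 274 and 258. The median change of all tested genes was 0.01 and the median size of called changes was 0.89. Among called genes, both 480 µg/ml libraries lay beyond both untreated libraries in all 5085. Over all tested genes, both libraries lay above both untreated libraries in 5820 (31.8%) and below both in 5541 (30.3%). Replicate 1 was the further of the pair in 34.9% of genes called higher and 45.4% of those called lower. Counts were smaller with 1 untreated library: without untreated replicate 1 they fell to 956 and 1332, and without untreated replicate 2 to 954 and 1294. Leaving out 480 µg/ml replicate 1 raised the lower calls to 4160.

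**Figure D1:**
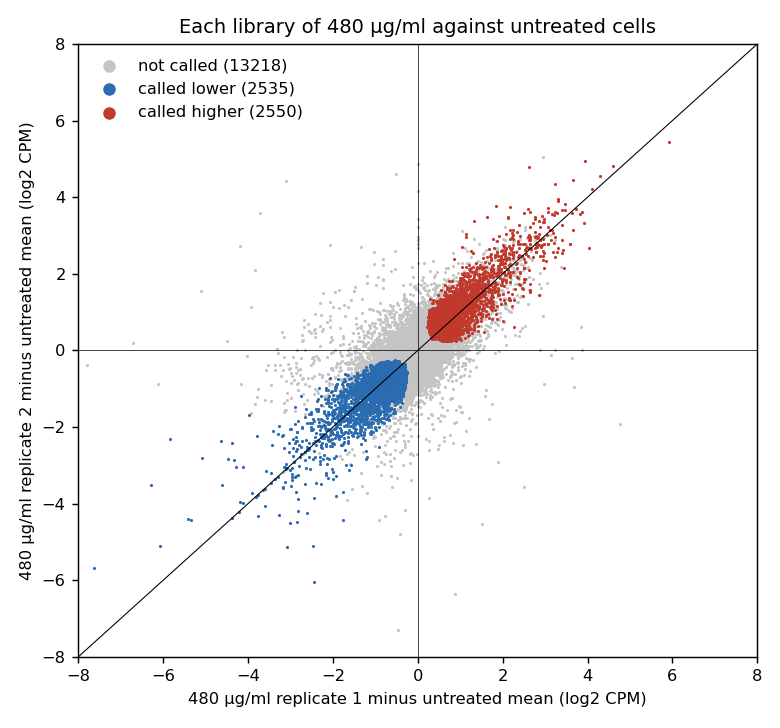
Each point is 1 of 18303 tested genes; the horizontal axis gives its level in 480 µg/ml replicate 1 and the vertical axis its level in replicate 2, both as log2 CPM minus the mean of the untreated libraries. The 2550 genes called higher lie in the upper right and the 2535 called lower in the lower left, while grey points in the other quadrants include the 2965 genes whose libraries fell on opposite sides of both untreated libraries.

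The largest rises among well expressed genes joined histones, p53 targets and fibrinogen. FDXR, a mitochondrial reductase of ferredoxin and known p53 target on chromosome 17 (74862497 to 74872994, GRCh38.p14), stood at 7.71 and 7.6 CPM in untreated cells and 50.5 and 76.8 CPM at 480 µg/ml, a log2 fold change of 3.06 ± 0.20 (SE). FGA, which encodes the alpha chain of fibrinogen, went from 298 and 326 to 1791 and 1932 CPM (2.58 ± 0.22). The untreated libraries lay close together in both. The rule that chose the genes of this paragraph required both treated values to exceed both untreated ones. APLP1, an amyloid precursor-like membrane protein, rose from 11.7 and 13.2 to 52.7 and 79.4 CPM, and SYTL1, a Rab27 effector in vesicle docking, from 8.11 and 6.53 to 30.7 and 45.8 CPM. PROM2, a membrane protrusion protein, rose from 3.4 and 4.01 to 16.4 and 19.95 CPM, and HHAT, the acyltransferase that palmitoylates Hedgehog, from 3.07 and 3.4 to 16.1 and 15.5 CPM. Levels in 480 µg/ml replicate 2 exceeded those in replicate 1 for all of these but HHAT.

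The 12 steepest falls among well expressed genes included the metallothioneins MT1X, MT2A and MT1F and the intestinal markers SLC17A4 and LGR5. CP encodes ceruloplasmin, a copper-carrying ferroxidase. It stood at 62.2 and 55.8 CPM in untreated cells and 4.3 and 2.9 CPM at 480 µg/ml, a log2 fold change of -4.04 ± 0.28. MGAM2, a glucosidase-like gene, fell from 198 and 199 to 24.8 and 8.74 CPM, and its treated libraries lay over 1 log2 unit apart. GLP1R, the receptor for glucagon-like peptide 1, fell from 21.8 and 24.4 to 2.91 and 2.19 CPM (-3.18 ± 0.24). C2CD4A fell from 91.3 and 79.9 to 11.5 and 8.57 CPM and the epithelial membrane protein gene EMP1 from 23.4 and 19.2 to 3.37 and 2.48 CPM. LIN28A, an RNA-binding protein of stem cells that blocks let-7 maturation, fell from 31.1 and 35.7 to 4.07 and 3.82 CPM (-3.08 ± 0.15, adjusted p = 5.7e-05). The rule that chose these genes allowed no treated value to reach an untreated one.

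**Figure D2:**
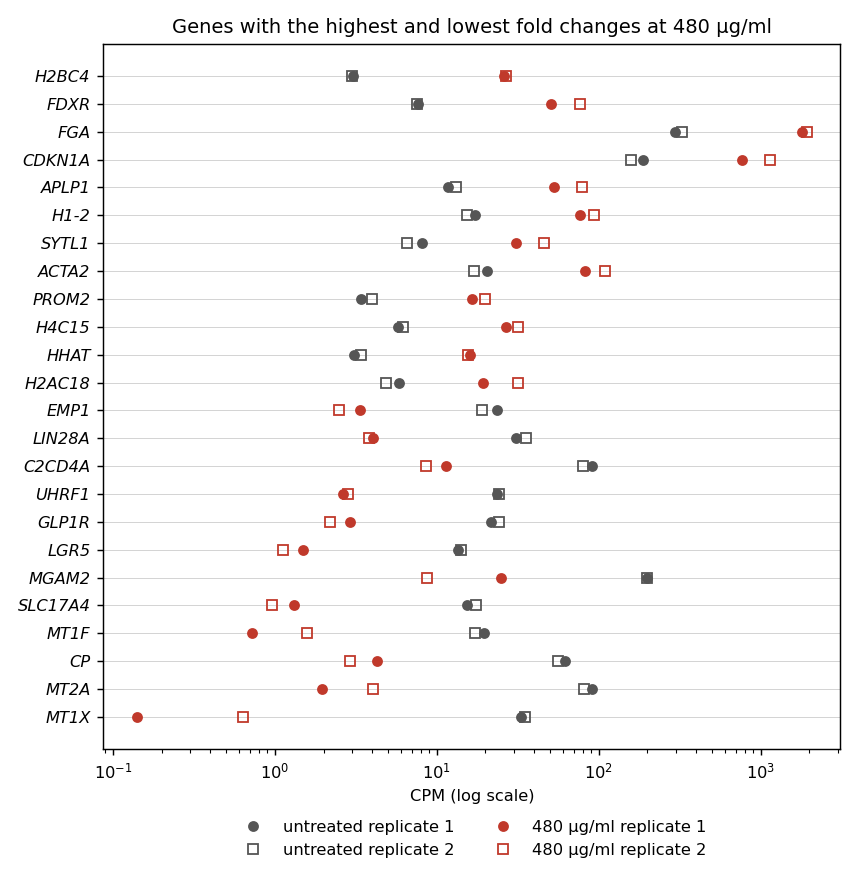
Level in CPM (log axis) of the 12 genes with the highest and the 12 with the lowest fold change among called genes of average log2 CPM of at least 3, in each untreated library (grey) and each 480 µg/ml library (red), circles for replicate 1 and squares for replicate 2. The rule that chose the 24 genes required that the groups not overlap. The widest gaps between red symbols are in MT1X and MGAM2.

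Known p53 targets that halt the cell cycle or restrain p53 itself were called higher in 14 of 20 cases and lower in 1, with a median change of 0.89 (0.90 in replicate 1 and 0.84 in replicate 2), beside 13.9% of all genes called in each direction. That share also applies beside the counts of the lists below. CDKN1A, which encodes the cyclin-dependent kinase inhibitor p21, stood at 189 and 158 CPM in untreated cells and 763 and 1149 CPM at 480 µg/ml (2.46 ± 0.19, adjusted p = 0.000137). MDM2, the ubiquitin ligase that degrades p53, went from 126 and 130.1 to 498 and 421 CPM (1.84 ± 0.13). The 2 genes differed in which treated library was higher, replicate 2 for CDKN1A and replicate 1 for MDM2. GDF15, a stress cytokine, rose from 163 and 133 to 378 and 502 CPM and PHLDA3, an inhibitor of AKT, from 12.7 and 11.6 to 37.5 and 66.1 CPM. PPM1D, BTG2, GADD45A, GADD45B, SESN1, SESN2, PLK2, PLK3, TP53INP1 and TRIM22 were the others called higher. GTSE1, a G2 phase gene that moves p53 out of the nucleus, was the member called lower, from 17.4 and 19.2 to 6.77 and 5.15 CPM.

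Apoptosis genes under p53 were called higher in 10 of 15 tested members (18 listed) and lower in 1, with a median of 0.89. FAS, a death receptor, stood at 4.75 and 5.47 CPM in untreated cells and 24.3 and 21.2 CPM at 480 µg/ml (2.15 ± 0.17). TNFRSF10C, a decoy receptor for TRAIL, went from 8.54 and 7.7 to 32.3 and 29.2 CPM and BBC3, the BH3-only protein PUMA, from 8.4 and 7.12 to 19.97 and 31.3 CPM. Thus both a death receptor and a decoy receptor were among the risers. TP53I3 rose from 8.25 and 7.62 to 19.7 and 28.9 CPM. BID, a BH3-only protein cleaved by caspase 8, was the member called lower, from 19.7 and 16.8 to 6.89 and 10.03 CPM.

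Repair and metabolic targets of p53 were called higher in 13 of 19 members and lower in none (0 at unadjusted p below 0.05 with edgeR, and 0 with DESeq2 or limma), with a median of 1.02. GLS2, a glutaminase, stood at 0.701 and 0.604 CPM in untreated cells and 6.65 and 8.14 CPM at 480 µg/ml (3.50 ± 0.27), the largest change in the list. TIGAR, a phosphatase that lowers glycolysis, rose from 13.4 and 12.7 to 31.7 and 31.5 CPM. XPC, which finds damaged DNA for nucleotide excision repair, rose from 45.9 and 45 to 94.5 and 98.6 CPM and POLH, a translesion polymerase, from 19.3 and 19.4 to 47.6 and 40.6 CPM. The treated replicates of TIGAR, named for its small p, and of XPC, chosen after its values were seen, lay close together. DDB2, TRIAP1, RRM2B, RPS27L, CYFIP2, SPATA18, FBXO22 and DRAM1 were also called higher. None of these 3 lists held a gene called different between 480 and 240 µg/ml, where only 0.257% of all tested genes were called. The list medians between these doses were 0.11 (arrest), 0.09 (apoptosis) and 0.11 (repair), beside 0.0024 over all tested genes.

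ACTA2, smooth muscle actin, rose from 20.4 and 17.1 to 82.8 and 109 CPM (2.35 ± 0.17). Its gene on chromosome 10 (88935074 to 88991337, GRCh38.p14) overlaps FAS, which lies on the opposite strand at 88964050 to 89017059. The library kit marks strand but the strand setting of the counting is not given in the sources used here, so reads of the overlap cannot be assigned to one gene from these files. The other contractile genes TAGLN, CNN1, TPM1, TPM2 and MYL9 were called lower.

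**Figure D3:**
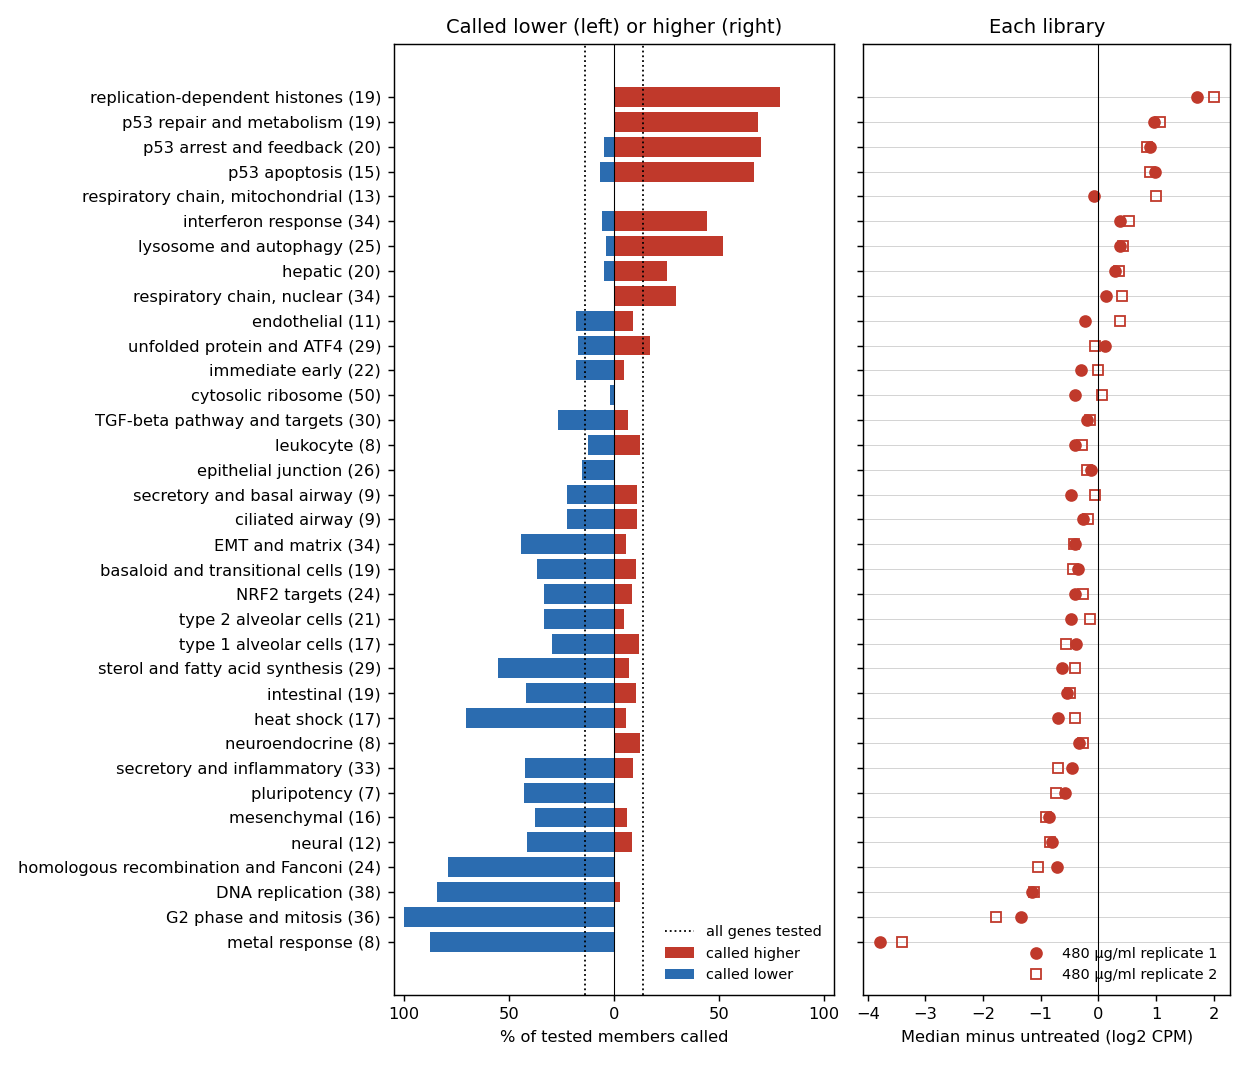
For each gene list (number of tested members in parentheses) the left panel gives the percentage of tested members called higher (red, right) or lower (blue, left) at 480 µg/ml, with dotted lines at the 13.9% of all tested genes; the right panel gives the median difference from the untreated mean in each 480 µg/ml library. All 36 mitotic members were called lower, and the 2 libraries part most in the mitochondrially encoded respiratory chain.

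Genes of G2 phase and mitosis were called lower in 36 of 36 members, with a median change of -1.68 (-1.35 in replicate 1 and -1.77 in replicate 2). Their summed level was 1786 and 1850 CPM in untreated cells and 692 and 496 CPM at 480 µg/ml. KIF20A, a kinesin of the central spindle, stood at 49.7 and 50.8 CPM in untreated cells and 10.3 and 10.4 CPM at 480 µg/ml (-2.28 ± 0.11, adjusted p = 6.18e-05). PLK1, the mitotic entry kinase, fell from 52.3 and 44.1 to 13 and 13.9 CPM and AURKB, the kinase of the chromosomal passenger complex, from 25.5 and 23.9 to 6.33 and 6.66 CPM. PRC1, which bundles spindle microtubules, fell from 55.2 and 56.1 to 17.8 and 15.5 CPM. The treated replicates lay close together in these 4 genes. A choice by small p favours such agreement, and AURKB was chosen after its values were seen. Over the list the median of replicate 1 minus replicate 2 was 0.41. MKI67, the antigen Ki-67, fell from 119 and 126 to 32.4 and 18.1 CPM and CENPE, a kinetochore kinesin, from 26.9 and 34.2 to 13.1 and 4.2 CPM, with replicate 2 lower in both. CENPE was 1 of 4 members whose treated libraries lay over 1 log2 unit apart.

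Promoters of mitotic genes often carry a CHR element, bound by DREAM, downstream of CCAAT boxes bound by NF-Y. The windows of KIF20A and PRC1, from 250 bases before to 50 after the start of transcription in RefSeq (GRCh38.p14), are shown because the members fell together. These were the called members of smallest p whose window held either element, so that a match was a condition of the choice. Capitals mark TTTGAA (the CHR core) and CCAAT, either of them on either strand. KIF20A covers chr5:138178862-138179161 on the plus strand and PRC1 covers chr15:90994486-90994785 on the minus strand.
KIF20A: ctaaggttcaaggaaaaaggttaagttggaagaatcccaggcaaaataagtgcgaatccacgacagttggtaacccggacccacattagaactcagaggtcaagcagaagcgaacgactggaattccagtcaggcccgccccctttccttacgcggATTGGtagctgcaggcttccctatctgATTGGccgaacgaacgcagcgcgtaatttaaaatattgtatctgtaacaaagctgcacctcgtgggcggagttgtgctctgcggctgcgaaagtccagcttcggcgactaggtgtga
PRC1: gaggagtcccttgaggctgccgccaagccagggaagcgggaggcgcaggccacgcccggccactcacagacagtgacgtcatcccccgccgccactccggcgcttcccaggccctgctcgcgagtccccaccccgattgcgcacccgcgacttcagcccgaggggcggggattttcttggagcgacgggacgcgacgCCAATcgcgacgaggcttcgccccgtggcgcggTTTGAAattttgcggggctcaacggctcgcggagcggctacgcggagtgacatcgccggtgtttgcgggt
The KIF20A window held 2 CCAAT boxes, both on the opposite strand, and no CHR core. PRC1 held 1 of each, with the CHR core downstream of the CCAAT box. The CHR core occurred in 22 of 31 promoters of mitotic members called lower for which RefSeq gave a window (71.0%), against 10.3% of the 13134 tested genes with a window, and the CCAAT box in 26 of 31 (83.9%) against 36%. The CHR core was found in 1 of 29 promoters of replication genes called lower (3.45%), 1 of 16 of recombination genes (6.25%) and 14.7% of all genes called lower. The 2 matches in PRC1 do not overlap. A match describes the letters and not bound protein.

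DNA replication genes were called lower in 32 of 38 members and higher in 1, with a median of -1.12 (-1.16 in replicate 1 and -1.12 in replicate 2). UHRF1, which guides maintenance DNA methylation at forks, stood at 23.4 and 24.2 CPM in untreated cells and 2.63 and 2.84 CPM at 480 µg/ml (-3.12 ± 0.14). MCM7, a subunit of the replicative helicase, fell from 96.6 and 98.7 to 24.3 and 29.6 CPM and MCM4 from 74.4 and 80.9 to 27.8 and 26.1 CPM. RRM2, the small subunit of ribonucleotide reductase, fell from 51.2 and 61.6 to 20.5 and 17.9 CPM. Untreated and treated values did not overlap in these 4, the members of smallest p, as in every called gene. TYMS, thymidylate synthase, was the member called higher, from 70.1 and 70.8 to 106 and 108 CPM (0.60 ± 0.11, adjusted p = 0.00394), a call lost without either untreated replicate (adjusted p up to 0.0552). PCNA, the sliding clamp, LIG1, POLA2, GINS4 and CCNE2 were not called. PCNA is itself a p53 target and stood at 42.7 and 47.8 CPM untreated and 44.7 and 59 CPM treated.

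Homologous recombination and Fanconi genes were called lower in 19 of 24 members and higher in none (edgeR; 1 at unadjusted p below 0.05, and 0 with DESeq2 or limma), with a median of -0.90 (-0.72 in replicate 1 and -1.05 in replicate 2). RAD54L, a motor of strand exchange, stood at 16.5 and 19.1 CPM in untreated cells and 7.03 and 6.86 CPM at 480 µg/ml (-1.36 ± 0.14). FANCA of the Fanconi core complex fell from 12.2 and 12.2 to 4.61 and 5.7 CPM and BRCA2, a tumour suppressor of homologous recombination, from 7.5 and 10.1 to 4.23 and 2.85 CPM. The groups did not overlap in the 3, as in every called gene. Both treated libraries lay below both untreated ones in 30.3% of all tested genes. BRCA1, BARD1, PALB2, BLM and EXO1 were also called lower. The count was 8 without untreated replicate 2.

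Replication-dependent histone genes lay on the other side of untreated cells from most replication genes: 15 of 19 tested members (22 listed) were called higher and none lower, with a median of 2.08 (1.71 in replicate 1 and 2.0 in replicate 2). H2BC4, an H2B gene on chromosome 6 (26113170 to 26123926, GRCh38.p14), stood at 3.02 and 2.99 CPM in untreated cells and 26.2 and 26.8 CPM at 480 µg/ml (3.14 ± 0.21). H1-2, a linker histone, rose from 17.2 and 15.4 to 76.9 and 94.2 CPM and H2BC8 from 0.306 and 0.414 to 2.65 and 3.06 CPM. The treated replicates lay close together in H2BC4 and further apart in H2AC18, at 5.86 and 4.87 CPM untreated and 19.4 and 31.9 CPM treated. H2AC18 and H2AC19 are near-identical copies, so their split of reads is uncertain. The summed level of the list was 85.4 and 76.5 CPM in untreated cells and 261 and 328 CPM at 480 µg/ml. Most mRNA of these genes ends in a stem-loop without a poly(A) tail, and the libraries were made with an mRNA kit, so the values cover what that kit captured. H2BC4 and H1-2 were also called higher than at 240 µg/ml.

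Metal response genes had the lowest median of the lists examined: 7 of 8 tested members (11 listed) were called lower, with a median of -3.83 (-3.79 in replicate 1 and -3.41 in replicate 2). Metallothioneins are small cysteine-rich proteins that hold zinc and copper. MT2A stood at 90.8 and 81.2 CPM in untreated cells and 1.96 and 4.04 CPM at 480 µg/ml (-4.84 ± 0.40). MT1X fell from 33.3 and 35 to 0.140 and 0.632 CPM (-6.43 ± 0.48) and MT1E from 13.6 and 12.3 to 0.158 and 0.340 CPM (-5.67 ± 0.35). All treated values lay below the untreated ones, as in every gene called lower, and replicate 1 was the lower of the pair in these 3 genes. Reads of metallothioneins can match several near-identical copies, so single genes are uncertain. The zinc exporter gene SLC30A1 fell less, from 93 and 95.6 to 59.1 and 44.3 CPM, and SLC30A10 was also called lower. The regulator MTF1, a zinc-sensing factor, was not called, at 17.9 and 19.1 CPM untreated and 19.7 and 16.4 CPM treated.

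MTF1 binds metal response elements with the core TGCNCNC, where N is any base. The windows of MT1X and MT2A are shown, with this core in capitals on either strand. They were the called members of smallest p whose window held the core, so that a match was a condition of the choice. MT1X covers chr16:56682220-56682519 and MT2A covers chr16:56608334-56608633, both on the plus strand (RefSeq, GRCh38.p14).
MT1X: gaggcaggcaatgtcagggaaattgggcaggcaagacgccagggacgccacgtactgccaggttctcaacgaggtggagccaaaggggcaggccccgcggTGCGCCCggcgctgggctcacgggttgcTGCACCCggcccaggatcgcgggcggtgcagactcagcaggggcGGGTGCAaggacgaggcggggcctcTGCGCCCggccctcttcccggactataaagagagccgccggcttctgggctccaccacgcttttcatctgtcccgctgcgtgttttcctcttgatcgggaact
MT2A: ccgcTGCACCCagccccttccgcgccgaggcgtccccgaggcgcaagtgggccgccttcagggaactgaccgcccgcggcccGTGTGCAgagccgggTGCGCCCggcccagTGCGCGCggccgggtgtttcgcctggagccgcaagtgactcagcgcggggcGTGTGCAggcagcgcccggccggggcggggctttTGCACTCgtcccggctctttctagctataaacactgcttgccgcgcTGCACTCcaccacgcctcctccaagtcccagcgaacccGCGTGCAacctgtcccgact
The MT1X window held 4 matches and the MT2A window 8. The core is loose and was found in 62.9% of all 13134 windows. It was found in 3 of the 4 windows of metal response genes called lower. Ferritin light chain, FTL, which stores iron, moved the other way, from 4345 and 3686 to 10647 and 15607 CPM (1.71 ± 0.18).

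**Figure D4:**
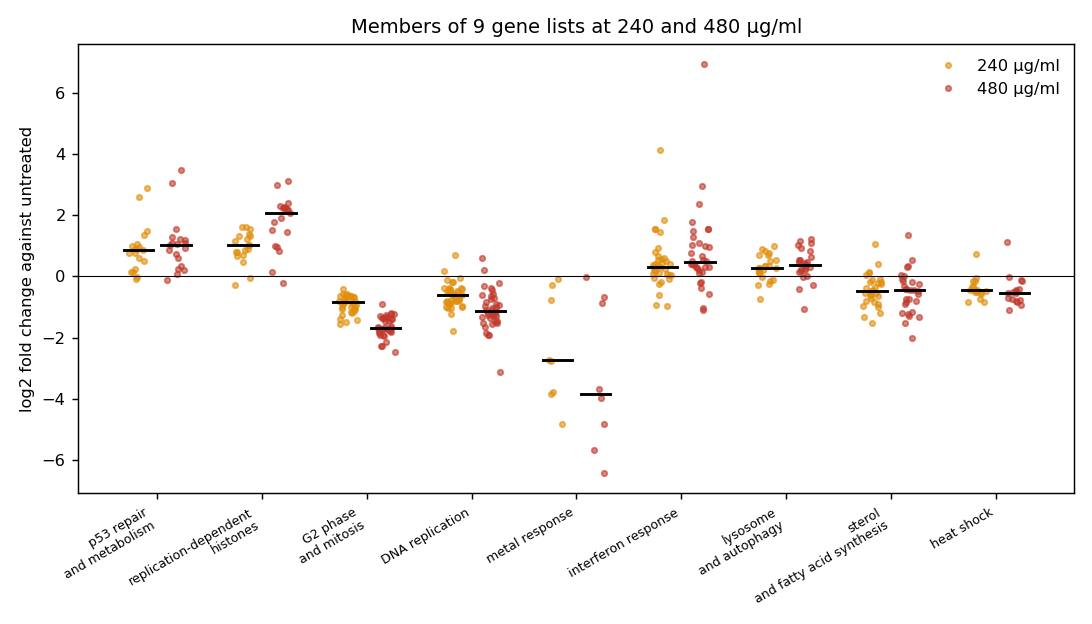
Log2 fold change against untreated cells of every tested member of 9 gene lists at 240 µg/ml (orange) and 480 µg/ml (red), with the median as a black bar; both doses share the same untreated libraries. Mitotic members lie between -2.48 and -0.91 at 480 µg/ml and metal response members reach -6.43; the interferon member with the highest fitted value is IFI44L, which had 0 counts in both untreated libraries, so that its fitted value is no measure of size.

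Alveolar type 2 markers were called lower in 7 of 21 tested members (25 listed) and higher in 1, with a median of -0.41 (-0.47 in replicate 1 and -0.15 in replicate 2). SLC34A2, the phosphate transporter of type 2 cells, stood at 14.1 and 15.3 CPM in untreated cells and 1.3 and 1.57 CPM at 480 µg/ml (-3.35 ± 0.32). LPCAT1, which remodels surfactant phosphatidylcholine, fell from 119.9 and 117 to 60.3 and 60.2 CPM. ABCA3, which pumps lipid into lamellar bodies, was the member called higher, from 11.9 and 14.2 to 25.7 and 32.2 CPM (1.15 ± 0.16). Lipid handling genes of this list thus moved both ways. SFTPB, surfactant protein B, stood at 14.9 and 16.9 CPM untreated and 5.21 and 7.73 CPM treated (-1.30 ± 0.40, adjusted p = 0.0393), and NKX2-1, the lung lineage factor, at 0.827 and 1.02 CPM untreated and 0.263 and 0.308 CPM treated (-1.68 ± 0.48, adjusted p = 0.0301). Both calls were lost without either untreated replicate and without 480 µg/ml replicate 1, that of NKX2-1 also without replicate 2 and with limma, and that of SFTPB with DESeq2, with adjusted p up to 0.144 for SFTPB and 0.133 for NKX2-1 over the alternatives. The list count was 4 without untreated replicate 1, 3 without untreated replicate 2 and 4 without 480 µg/ml replicate 1.

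Type 1 markers were called lower in 5 of 17 tested members (18 listed) and higher in 2, beside 13.9% of genes in each direction. GPRC5A, a retinoic acid-induced receptor, stood at 342 and 332 CPM in untreated cells and 95.1 and 92.7 CPM at 480 µg/ml (-1.84 ± 0.19), and PDPN, podoplanin, at 5.14 and 7.05 CPM untreated and 2.68 and 2.72 CPM treated. RTKN2 fell from 15.7 and 19 to 5.87 and 4.89 CPM, while CAV2 was called higher. No member was called higher without either untreated replicate or with limma. The lower count was 2 without untreated replicate 2 and 9 without 480 µg/ml replicate 1. Genes of the basaloid and transitional states seen after alveolar injury were called higher in 2 of 19 tested members (24 listed), GDF15 and LGALS3, and lower in 7. KRT8, keratin 8, was not called by edgeR, at 2144 and 1899 CPM untreated and 1252 and 1889 CPM treated, but was called lower with limma, with no filter and without 480 µg/ml replicate 2. KRT17 had 0 counts in all 4 libraries. HMGA2, a chromatin protein, fell from 134 and 135 to 72.4 and 56.6 CPM, and CDKN2B, a kinase inhibitor, from 17.9 and 16.7 to 8.22 and 8.4 CPM. The lower count of this list was 3 without untreated replicate 1 and 4 without untreated replicate 2, and the higher count was 5 without 480 µg/ml replicate 1 and 1 when any of the other 3 libraries was left out.

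Liver-type genes were called higher in 5 of 20 members and lower in 1, with a median of 0.33 (0.29 in replicate 1 and 0.36 in replicate 2). For all genes the share was 13.9% in each direction. The fibrinogen genes were the leading risers: FGB, the beta chain, went from 1696 and 2017 to 4795 and 4667 CPM (1.35 ± 0.15) and FGG, the gamma chain, from 108 and 125 to 428 and 456 CPM (1.92 ± 0.27). All 3 chains, which form 1 secreted hexamer, were called higher. APOC3 fell from 51.7 and 42.5 to 13.2 and 21.4 CPM, a call lost without untreated replicate 1. ALB and AFP were not called, with AFP at 42583 and 44115 CPM untreated and 52731 and 46777 CPM treated. The higher count was 3 without either untreated replicate.

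Intestinal markers were called lower in 8 of 19 tested members (20 listed) and higher in 2, beside 13.9% of genes in each direction. SLC17A4, a transporter of the gut epithelium, stood at 15.3 and 17.6 CPM in untreated cells and 1.32 and 0.956 CPM at 480 µg/ml (-3.86 ± 0.22). LGR5, the R-spondin receptor of gut stem cells, fell from 13.5 and 14.2 to 1.49 and 1.12 CPM (-3.41 ± 0.31) and FABP1, a fatty acid carrier, from 193 and 184 to 73.2 and 80.8 CPM. CDX2, the master regulator of gut identity, rose from 206 and 190.5 to 363 and 415 CPM (0.97 ± 0.14). The regulator and most of the called markers thus lay on opposite sides of untreated cells. Summed levels of the list were 3532 and 3507 CPM untreated and 3799 and 3417 CPM treated.

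Markers of other cell types were present at different levels. Summed mesenchymal markers stood at 494 and 535 CPM in untreated cells and 519 and 452 CPM at 480 µg/ml. They were called lower in 6 of 16 tested members (20 listed) and higher in 1, TWIST1, with a median of -0.85. The TWIST1 call was lost without any 1 of the 4 libraries. PDGFRA, a growth factor receptor of fibroblasts, stood at 27.7 and 36.6 CPM in untreated cells and 13.3 and 8.59 CPM at 480 µg/ml, and DCN, decorin, at 2.23 and 2.69 CPM untreated and 0.561 and 0.502 CPM treated. Neural markers were called lower in 5 of 12 tested (13 listed) and higher in 1. STMN2 led the lower calls, at 14 and 17.5 CPM untreated and 6.56 and 4.99 CPM treated. The median of the neural list was -0.87, and -0.53 without untreated replicate 2. Among 11 tested endothelial markers TEK was called higher and CLDN5 and ESAM lower, and among 8 tested leukocyte markers PTPRC higher and CSF1R lower. These shares lie near the 27.8% of all genes called, and neither list had a call without either untreated replicate. MUC5AC, an airway mucin, fell from 3.76 and 3.66 to 0.614 and 0.405 CPM. It is 1 of the airway secretory and basal markers, called lower in 2 of 9 tested and higher in 1. Ciliated markers were called lower in 2 of 9 (CAPS and TPPP3) and higher in 1 (PIFO). The shares of both airway lists lie near the 27.8% of all genes called. Of 8 neuroendocrine markers CHGB was called higher, a share below the 13.9% of all genes, and the call was lost with DESeq2, with the 2 groups alone, without either untreated replicate and without 480 µg/ml replicate 2. SOX2 and LIN28B were called lower with LIN28A among 7 tested pluripotency genes (12 listed), and fewer were called without either untreated replicate. Of those not tested, POU5F1, UTF1 and PRDM14 had 0 counts in all libraries and NANOG at most 3. The part of the cell types of this paragraph in the other results was not tested.

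Genes of epithelial to mesenchymal transition and matrix were called lower in 15 of 34 members and higher in 2, ACTA2 and TWIST1, with a median of -0.31. The TWIST1 call (adjusted p = 0.0445) was lost in 9 of 12 alternatives, among them DESeq2, limma and each fit without 1 library. S100A4, a calcium-binding protein of fibroblasts, stood at 14.5 and 13.2 CPM in untreated cells and 4.38 and 4.51 CPM at 480 µg/ml (-1.64 ± 0.15). THBS1, thrombospondin 1, which activates TGF-beta, fell from 70.9 and 82.4 to 28.1 and 29.95 CPM and TNC, tenascin C, from 10.5 and 10.1 to 3.93 and 4.36 CPM. FN1, fibronectin, went from 11178 and 12512 to 8561 and 7933 CPM (-0.52 ± 0.11, adjusted p = 0.0085), a call lost without untreated replicate 2 (adjusted p = 0.073). COL1A1, the main chain of collagen I, was not called at 44.9 and 56.2 CPM untreated and 37.8 and 50.1 CPM treated, nor VIM at 502 and 506 CPM untreated and 385 and 481 CPM treated. The list's lower count was 9 without untreated replicate 2. Epithelial junction genes were called lower in 4 of 26 members, near the 13.9% of all tested genes. The member of smallest p was the splicing factor ESRP1, at 238 and 229 CPM untreated and 133 and 107 CPM treated. None was called higher by edgeR (1 at unadjusted p below 0.05), and 1 was by DESeq2 and by limma. The lower count was 2 without either untreated replicate and 7 without either 480 µg/ml replicate. CDH1, E-cadherin, stood at 1059.9 and 1057 CPM untreated and 1076 and 919.6 CPM treated.

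TGF-beta pathway and target genes were called lower in 8 of 30 members and higher in 2, beside 13.9% of genes in each direction. INHBA, an activin subunit, stood at 2.43 and 2.02 CPM in untreated cells and 0.649 and 0.340 CPM at 480 µg/ml (-2.17 ± 0.34). SMAD3, a signal transducer, fell from 86.6 and 86.8 to 55.7 and 49.7 CPM. Ligand, receptor and transducer genes were all among the lower calls: TGFB2, TGFB3, TGFBR2 and SMAD4. TGFB1 was not called, at 60.1 and 58.7 CPM untreated and 61.1 and 92.3 CPM treated, its replicate 2 above the other 3 libraries. The lower count was 5 without either untreated replicate. LTBP2 and ID2 were the 2 called higher, a count of 0 without either untreated replicate, 6 without 480 µg/ml replicate 1 and 4 without replicate 2.

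Secreted and inflammatory genes were called lower in 14 of 33 tested members (38 listed) and higher in 3, with a median of -0.57. IL32, a proinflammatory cytokine, stood at 28.4 and 23.4 CPM in untreated cells and 6.1 and 4.57 CPM at 480 µg/ml (-2.28 ± 0.27). IGFBP3, an IGF carrier, fell from 89 and 88.7 to 31.4 and 28.5 CPM and MMP1, a collagenase, from 474 and 509 to 203 and 199 CPM. IL1A and IL1B were also called lower. IL6 had 0 counts in all 4 libraries, and CXCL8, interleukin 8, stood at 1.4 and 0.812 CPM untreated and 0.544 and 0.130 CPM treated. TIMP1, HBEGF and CCL28 were the 3 called higher, and none of the list was called higher without either untreated replicate.

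Interferon response genes were called higher in 15 of 34 tested members (40 listed) and lower in 2, with a median of 0.46 (0.38 in replicate 1 and 0.53 in replicate 2). IFI6, a mitochondrial survival protein, stood at 1.56 and 1.71 CPM in untreated cells and 7.93 and 8.88 CPM at 480 µg/ml (2.36 ± 0.17). IFIT1, which binds foreign RNA caps, rose from 0.539 and 0.449 to 4.87 and 2.84 CPM and MX1, an antiviral GTPase, from 6.67 and 5.16 to 17.9 and 15.3 CPM. TAP1, the peptide transporter for MHC class I, rose from 5.65 and 5.04 to 16.4 and 20.3 CPM. STAT2, HLA-B and HLA-C were all called higher, whereas ISG20 and IFI27 were called lower. Without untreated replicate 1 the ISG20 call was lost (adjusted p = 0.0545) and the lower count was 0, and without untreated replicate 2 it was 1. TRIM22 stands in both this list and that of p53 targets. The higher count was 8 without either untreated replicate.

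Lysosome and autophagy genes were called higher in 13 of 25 members and lower in 1, the regulator TFEB, with a median of 0.38. The TFEB call (adjusted p = 0.0428) was lost in 5 of 12 alternatives, among them without either untreated replicate and without 480 µg/ml replicate 1. CTSL, a cathepsin, stood at 69.9 and 70.2 CPM in untreated cells and 149.7 and 163 CPM at 480 µg/ml (1.16 ± 0.12). LAMP1, a lysosomal membrane protein, rose from 235 and 233 to 418 and 477 CPM and ATG7, which activates ubiquitin-like autophagy proteins, from 14.6 and 13.1 to 26.2 and 33 CPM. The groups did not overlap in these 3, as in every called gene. Both treated libraries lay above both untreated ones in 31.8% of all tested genes. The higher count was 5 without untreated replicate 1 and 4 without untreated replicate 2.

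Sterol and fatty acid synthesis genes were called lower in 16 of 29 members and higher in 2, with a median of -0.46 (-0.64 in replicate 1 and -0.41 in replicate 2). For all genes the share was 13.9% in each direction. FASN, fatty acid synthase, stood at 432 and 381 CPM in untreated cells and 122 and 163 CPM at 480 µg/ml (-1.51 ± 0.15). HMGCS1, which opens the mevalonate pathway, fell from 204 and 231 to 109 and 76 CPM. The regulator SREBF2 was called lower and SREBF1 was not called. TM7SF2 and SC5D, late enzymes of cholesterol synthesis, were called higher.

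Heat shock genes were called lower in 12 of 17 members and higher in 1, with a median of -0.54. HSP90AB1, a cytosolic chaperone, stood at 1752 and 1774 CPM in untreated cells and 1005 and 1059 CPM at 480 µg/ml (-0.77 ± 0.10), and HSPD1, the mitochondrial chaperonin, at 700.4 and 739 CPM untreated and 426 and 374 CPM treated. HSPA4L rose from 13.2 and 14.2 to 36 and 23.3 CPM. HSPA1A and HSPA1B are near-identical, so their separate values are uncertain. The lower count was 5 without untreated replicate 1 and 7 without untreated replicate 2.

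NRF2 targets were called lower in 8 of 24 members and higher in 2, FTL and SRXN1, beside 13.9% of genes in each direction. AKR1B10, an aldo-keto reductase, stood at 19.96 and 17.1 CPM in untreated cells and 2.23 and 2.93 CPM at 480 µg/ml (-2.84 ± 0.18), while NQO1 was not called. The lower count was 5 without untreated replicate 2. Unfolded protein and ATF4 genes were called higher in 5 of 29 members and lower in 5, both near the 13.9% of all genes. The cystine transporter gene SLC7A11, a target of NRF2 and ATF4, fell from 26.4 and 28.3 to 8.77 and 5.09 CPM (-1.98 ± 0.24) and the serine synthesis gene PSAT1 from 34.5 and 42.5 to 18.9 and 19.6 CPM, while the chaperone-like CRELD2 rose from 9.3 and 8.43 to 18 and 28.3 CPM. Both counts of that list were 3 without untreated replicate 1, and the higher count was 8 without 480 µg/ml replicate 1. Of 22 tested immediate early genes (23 listed), EGR1 was called higher and 4 lower. These shares lie below and near the 13.9% of all genes. MYC, the growth regulator, fell from 67.1 and 56.3 to 10.7 and 14.5 CPM (-2.29 ± 0.29). The lower count was 7 without 480 µg/ml replicate 2.

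Respiratory chain genes showed where the treated libraries parted. Of 13 genes encoded in mitochondria edgeR called none (2 higher at unadjusted p below 0.05), and 9 differed by over 1 log2 unit between the treated replicates, with medians of -0.08 in replicate 1 and 0.99 in replicate 2. ND1, a subunit of complex I, stood at 508 and 500.4 CPM untreated and 349.9 and 849 CPM treated, and CYTB, of complex III, at 643 and 598 CPM untreated and 545 and 1313 CPM treated. Replicate 1 lay below the untreated libraries and replicate 2 above them in both genes. All 13 were called higher without 480 µg/ml replicate 1, 9 with no filter, 2 with DESeq2 and 0 with limma. Nuclear respiratory chain genes were called higher in 10 of 34 members and lower in none (0 at unadjusted p below 0.05 with edgeR, and 0 with DESeq2 or limma), with a median of 0.20 (0.13 in replicate 1 and 0.41 in replicate 2). NDUFB5 rose from 57.2 and 54.6 to 88.1 and 90.6 CPM and NDUFA4 from 121 and 107 to 161 and 221 CPM. That count was 4 without untreated replicate 1, 0 without untreated replicate 2 and 21 without 480 µg/ml replicate 1, and 3 were called lower without replicate 2. Cytosolic ribosomal proteins were called lower in 1 of 50, RPL22, and higher in none (0 at unadjusted p below 0.05 with edgeR, and 0 with DESeq2 or limma), with medians of -0.40 in replicate 1 and 0.07 in replicate 2. Their lower count was 32 without 480 µg/ml replicate 2, 6 with limma, 2 with DESeq2 and 0 without either untreated replicate, and 4 were called higher without 480 µg/ml replicate 1.

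Genes chosen for the largest gap between the treated replicates are given as a description. UBN2, a histone chaperone subunit, stood at 32.1 and 37 CPM untreated and 34.3 and 5.28 CPM treated. ZBED6 stood at 17.6 and 24.7 CPM untreated and 14.9 and 2.03 CPM treated, and EEA1, an endosome tether, at 46.5 and 51.4 CPM untreated and 54.5 and 18.8 CPM treated. In these genes replicate 2 alone was far below the untreated libraries. SLCO5A1, an organic anion transporter, stood at 11.1 and 11.5 CPM untreated and 5.77 and 23.1 CPM treated, with one replicate on each side.

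The gap between the treated libraries varied with transcript size and base composition. The median of replicate 1 minus replicate 2 was -0.47 log2 CPM for gene models under 1 kb. It was -0.11 for 2 to 4 kb and 0.39 for over 8 kb. Model length was inferred from the ratio of counts to the authors' FPKM. For the untreated pair the same medians were 0.14, 0.03 and -0.12, and for the 240 µg/ml pair -0.04, -0.0034 and 0.02. By GC content of the longest transcript the medians at 480 µg/ml went from 0.43 under 40% to -0.49 over 60%. Against untreated cells, replicate 1 ranged from -0.15 to 0.03 over the length classes and replicate 2 from 0.33 down to -0.40. Genes called lower made up 6.67% of models under 1 kb and 18.5% of those over 8 kb. What part length or composition has in the calls was not tested. Model length was known for 94.1% and GC for 89.6% of tested genes.

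**Figure D5:**
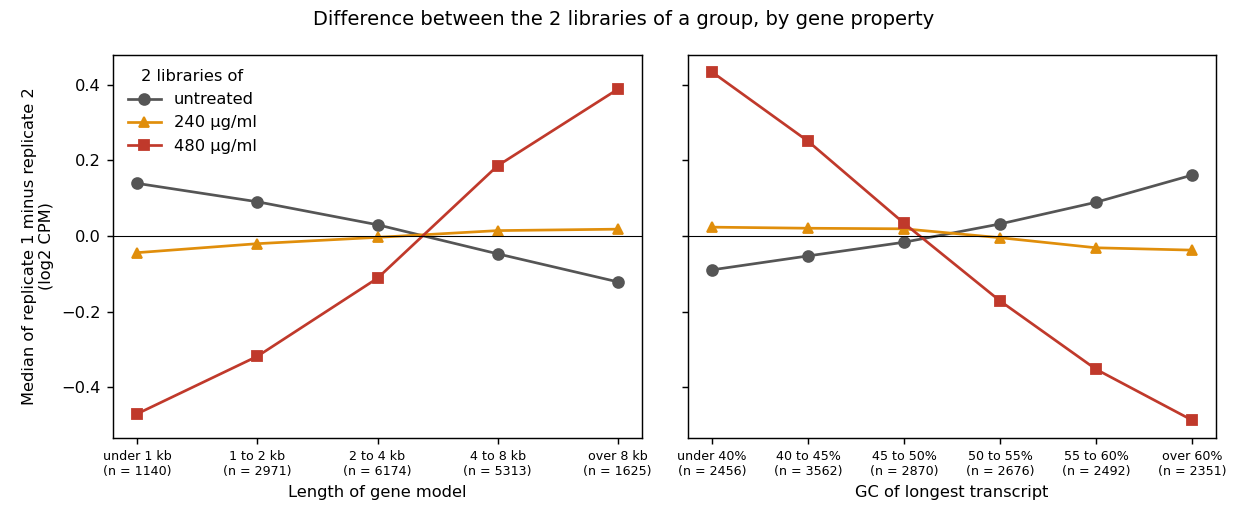
Median of replicate 1 minus replicate 2 (log2 CPM) within the untreated, 240 µg/ml and 480 µg/ml pairs, for tested genes grouped by length of the gene model (left) and by GC of the longest transcript (right), with the number of genes under each class. The 480 µg/ml line runs from -0.47 to 0.39 with length and from 0.43 to -0.49 with GC, while the 240 µg/ml line stays near 0. The untreated line runs from 0.14 to -0.12 with length and from -0.09 to 0.16 with GC. In the GC panel the untreated and 240 µg/ml medians come from CPM plus a small constant. Those of 480 µg/ml come from log2 CPM with the prior count.

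Long noncoding genes differed from coding genes in the balance of calls. Of 1582 tested, 15.4% were called higher and 6.45% lower, with a median change of 0.28 (0.23 in replicate 1 and 0.34 in replicate 2), against 14.2% and 15.8% of 14844 protein coding genes with a median of -0.01. Long noncoding genes with at least 1 count numbered 2467 and 2539 in untreated libraries and 3199 and 3404 at 480 µg/ml. All genes with at least 1 count numbered 21789 and 22107 untreated and 23612 and 24497 treated. Replicate 1 at 480 µg/ml held fewer total counts than either untreated library and still had more genes with at least 1 count. Genes with 1 to 9 counts numbered 4776 and 4842 untreated and 6229 and 6617 treated. Genes with at least 10 counts numbered 17013 and 17265 untreated and 17383 and 17880 treated. The gain thus lay mostly at low counts. In the 24 and 240 µg/ml libraries the range was 22831 to 23129 at 1 count and 17192 to 17583 at 10.

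The step from 240 to 480 µg/ml gave few calls. Of 18303 genes, 5 were called higher (0.0273%) and 42 lower (0.229%) at 480 than at 240 µg/ml (0.257% in all), while 2055 had an unadjusted p below 0.05. The 5 were SEMA4F, H2BC4, H1-2, ELOVL4 and MFSD1. H2BC4 stood at 10.3 and 8.23 CPM at 240 and 26.2 and 26.8 CPM at 480 µg/ml, a difference of 1.52 ± 0.20 log2 units (adjusted p = 0.039), and H1-2 at 39.96 and 32.3 CPM against 76.9 and 94.2 CPM. MFSD1, a lysosomal transporter gene, stood at 14.9 and 13 CPM against 30.9 and 25.8 CPM. The rule that chose H2BC4, H1-2 and MFSD1 allowed no overlap between the doses.

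Mitotic genes were frequent among the 42 lower calls: of the 36 mitotic list members 7 were called, namely KIF20A, PRC1, PLK1, AURKB, CDC20, CCNB1 and UBE2C, and of the replication list UHRF1 and MCM7. KIF20A stood at 22.4 and 22.9 CPM at 240 and 10.3 and 10.4 CPM at 480 µg/ml (-1.13 ± 0.11, adjusted p = 0.014), and UHRF1 at 6.59 and 7.35 CPM against 2.63 and 2.84 CPM (-1.35 ± 0.14). The median of all 36 mitotic members between the doses was -0.68, beside 0.0024 over all tested genes. Other lower calls were GLP1R at 8.43 and 11.9 CPM against 2.91 and 2.19 CPM, SLC17A4 at 3.52 and 3.9 CPM against 1.32 and 0.956 CPM, TM4SF4, a tetraspanin-like gene, at 143 and 157 CPM against 52.5 and 52.4 CPM, and LIN28A at 9.62 and 11.2 CPM against 4.07 and 3.82 CPM. The p53 targets lay nearer between doses, CDKN1A at 720.3 and 694 CPM against 763 and 1149 CPM (0.43 ± 0.18, adjusted p = 0.425) and MDM2 at 397 and 397 CPM against 498 and 421 CPM (0.21 ± 0.12, adjusted p = 0.603). No gene was called when either untreated or either 240 µg/ml library was left out, and 397 higher and 1033 lower were called without 480 µg/ml replicate 1, or 615 and 856 without replicate 2. The calls between the doses thus depended on the set of libraries fitted.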

How the data were processed

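RNA-seq libraries of 8 samples (2 for each of 4 groups) were compared as deposited. Reads were trimmed with Trimmomatic, aligned with HISAT2 (Bowtie2 is also named) and quantified with StringTie on GRCh38, per the submitters' processing notes. Versions, annotation release and strand setting are not given in the sources used here. The deposited read count table gave whole counts for 46425 gene symbols, after 2 repeated rows of one symbol were dropped. The deposited TPM table, made by the authors, served as an alternative. The FPKM table deposited by the authors gave, with the counts, the gene model lengths and was used for no other result.

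Counts of all 8 libraries were fitted by group in edgeR 4.0.16 (R 4.3.3) with TMM scaling, a filter of 10 counts (filterByExpr; 18303 genes kept), the quasi-likelihood test and Benjamini-Hochberg adjustment over all tested genes, two-sided, called at 0.05. SE is the log2 fold change divided by the root of the F statistic. Differences of single libraries are log2 CPM with a prior count of 2, which draws low genes towards 0 and can leave both library medians of a list nearer 0 than its fitted median. The simulated-data check ran with the same code. Alternatives used limma 3.58.1 (pseudocount 1, filter of TPM 1), DESeq2 1.42.0, RLE scaling, other filters, fewer libraries and a replicate block. Same-numbered libraries did not deviate together (correlations -0.08 to 0.04), so numbers were not taken to pair samples. Intervals and floors from counts cover counting error only.

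The gene lists and comparisons were chosen with earlier results of these data known. Genes were named by rule: the 12 highest and 12 lowest fold changes among called genes of average log2 CPM of at least 3 with both libraries beyond both untreated ones; per list, the 4 members of smallest p and the strongest opposite mover; a set of 20 genes, of which some are not reported here; the 6 highest and 6 lowest called genes against 240 µg/ml under the same level limit; and the 6 genes most apart between the treated replicates in each direction. AURKB, BRCA2, HMGCS1, MTF1, MX1, PCNA, PDPN, PHLDA3, POLH, SLC30A1, XPC and members listed without values were chosen after their values were seen. Length, GC and motif summaries and genes at 0 counts were also examined after the data were seen. Symbols were matched to RefSeq GRCh38.p14 for 42656 genes.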

Additional observations from a re-analysis of the deposited data

How the results depend on the processing

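No gene called between 480 µg/ml and untreated cells was called in the opposite direction under any of the 12 alternatives, which kept 43.1% to 99.9% of the calls. Fitting the 2 groups alone gave 1308 higher and 1550 lower. Leaving out 1 library gave 954 to 3729 higher and 1294 to 4160 lower; the lone library left in a group was then assumed to vary like the others. With the replicate number as a block, 2116 higher and 2269 lower were called, and DESeq2 gave 2409 and 2583. Calls between 480 and 240 µg/ml were 38 higher and 286 lower with DESeq2, 85 and 380 with no filter, 0 and 8 with the replicate block, 0 and 0 with edgeR on the 2 groups alone (1261 genes at unadjusted p below 0.05), and 0 and 0 with limma on TPM (1576). Leaving out 1 library gave 0 to 615 higher and 0 to 1033 lower. The cause of these shifts was not tested beyond the change in libraries or genes fitted. With fits of the 2 groups alone, members called lower were 12 for recombination, 4 for basaloid, 7 for heat shock and 2 for junction genes, and members called higher were 3 for nuclear respiratory chain, 7 for lysosome and 1 for inflammatory genes. Limma gave 1 inflammatory gene called higher. Over 35 lists, 2 directions and 12 alternatives, 661 of 840 list counts stayed within 1.5 times, among them 280 of the 312 whose count was at least 5 and 381 of the 528 whose count was smaller. The median of the unfolded protein list turned to -0.07 without 480 µg/ml replicate 1, that of the ribosomal list to 0.06, and that of the mitochondrially encoded list to -0.08 without replicate 2. Genes at 3 counts or fewer, 0.0486 to 0.0539 CPM in these libraries, cannot be told from 0.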

Other observations

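Some genes with no count in one group were read in the other. At 480 µg/ml, 51 genes with 0 counts in both untreated libraries had at least 10 in both treated ones, of which 32 were protein coding and 14 long noncoding, against 13 genes the other way. At 240 µg/ml 16 genes appeared and 7 vanished by the same rule, and at 24 µg/ml 7 appeared and 2 vanished. ULBP2, a stress ligand of the natural killer receptor NKG2D, had 31 and 36 counts at 480 µg/ml, and DOCK2, a Rac activator of blood cells, had 22 and 43. PTPRC, the leukocyte antigen CD45, had 22 and 16, and IFI44L, an interferon-induced gene, had 16 and 14. In the other direction, MYB, a proliferation factor, had 42 and 33 counts in untreated cells, GCGR, the glucagon receptor, had 28 and 22, and S100G, a calcium-binding protein of the gut, had 28 and 39, with 0 in both treated libraries. These genes were chosen after their values were seen, and a fold against 0 is not given. The defining leukocyte and endothelial genes were otherwise low: summed levels over tested markers were 269 and 229 CPM untreated and 185 and 208 CPM treated for leukocytes, and 35.0 and 32.7 CPM against 29.2 and 45.6 CPM for endothelium.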
